A study of Mus musculus with 2 samples.

Results

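The hairpins described here are the miRNA genes of the Mirg cluster, a tandem array in the imprinted Dlk1-Dio3 domain of mouse chromosome 12. The rule that defines them uses position alone. It takes every GENCODE M21 miRNA gene on the plus strand lying wholly within a fixed window around Mir379 and Mir410 (mm10). The window held 39 of the 2202 miRNA genes in the tables. The members run from Mir379 to Mir410, and the window also takes in Mir3072, which lies 4082 bases beyond Mir410. Together they span 38901 bases, chr12:109709060-109747960. As M21 draws it, the noncoding gene Mirg covers chr12:109729764-109749460 and holds 14 of the 39. Of those, 4 lie in an exon, 5 partly in an exon and 5 in an intron of Mirg. The other 25 are intergenic in this annotation.

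The study sequenced small RNA from the left cerebral cortex of female mice labelled as strain 5xFAD/CAST, adult, 8 to 10 months old. 5xFAD mice carry human amyloid precursor protein and presenilin transgenes with familial Alzheimer mutations, driven by a neuronal promoter, and form amyloid plaques. CAST denotes mice of the castaneus subspecies, whose genome differs from the mm10 reference at many positions. The 2 libraries, replicates 1 and 2, form 1 group with the same labels throughout. There is no group without the transgenes, so no level can be tied to them. The labels give different tissue samples but the same donor entry for both libraries. They do not say that separate animals were used, so a p-value speaks only of how these libraries differ, and that difference may be technical.

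The Dlk1-Dio3 domain is imprinted: Dlk1, Rtl1 and Dio3 are expressed from the paternal chromosome, and the noncoding RNAs Meg3, Rian and Mirg, with their miRNAs and snoRNAs, from the maternal one. The Mirg hairpins are thought to be cut from a long maternal transcript, and they are abundant in brain. In cultured neurons the cluster is known as an activity-regulated unit whose transcription depends on the factor Mef2. Several of its miRNAs, miR-134 first among them, act on dendrites and spines. Many members resemble each other in sequence and are grouped as the miR-154 family.

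Each hairpin gives a 5p and a 3p arm, either of which can be loaded into Argonaute. Bases 2 to 8 of a loaded arm are the seed, which pairs with target messenger RNAs. The count tables sum both arms of a hairpin, so the arm that was sequenced is not known here. RefSeq (GRCm38.p6) listed 71 mature arms for 38 of the 39 members. Mir376c, Mir487b, Mir539, Mir485 and Mir453 had a single arm listed, so seeds of their other arms could not be compared. The following are arms of the 6 most abundant members, with the seed in capitals, shown because these hairpins hold most of the cluster's reads.
mmu-miR-382-5p: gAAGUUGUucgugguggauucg
mmu-miR-382-3p: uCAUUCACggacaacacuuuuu
mmu-miR-541-5p: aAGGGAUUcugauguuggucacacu
mmu-miR-541-3p: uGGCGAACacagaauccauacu
mmu-miR-411-5p: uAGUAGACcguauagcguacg
mmu-miR-411-3p: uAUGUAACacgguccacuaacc
mmu-miR-379-5p: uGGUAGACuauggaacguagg
mmu-miR-379-3p: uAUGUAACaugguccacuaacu
mmu-miR-487b-5p: uGGUUAUCccuguccucuucg
mmu-miR-485-3p: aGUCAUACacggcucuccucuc

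The 3p arms of Mir379 and Mir411 share the seed AUGUAAC, while their 5p seeds differ. Among the listed arms, 6 seeds were shared by 2 members each, and these groups took in 11 members. The groups besides the Mir379 and Mir411 3p pair follow, again with the seed in capitals, since a shared seed pairs with the same target letters. The 5p arm of Mir379 appears above and belongs with that of Mir1193.
mmu-miR-1193-5p: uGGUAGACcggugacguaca
mmu-miR-494-5p: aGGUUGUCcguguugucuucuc
mmu-miR-410-5p: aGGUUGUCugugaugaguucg
mmu-miR-376c-5p: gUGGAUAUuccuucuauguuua
mmu-miR-376b-5p: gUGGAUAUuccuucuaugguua
mmu-miR-1197-5p: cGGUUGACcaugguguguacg
mmu-miR-758-5p: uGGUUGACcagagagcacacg
mmu-miR-453: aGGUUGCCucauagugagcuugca
mmu-miR-496a-5p: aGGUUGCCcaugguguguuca

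Members of a seed group stood at like levels in 1 group, about 2-fold apart in another and far apart in others. Mir379 and Mir411, which share the 3p seed AUGUAAC, stood at means of 5802 and 6159 CPM. The hairpins with the seed GGUAGAC summed to 4811 CPM (counts scaled to a common library total over miRNA genes) in replicate 1 and 6828 CPM in replicate 2. Nearly all of that was Mir379, since Mir1193 had 15.1 and 20.9 CPM. Mir376b and Mir376c, which share the seed UGGAUAU, summed to 338 and 474 CPM. Mir376c stood 2.14-fold above Mir376b in replicate 1 and 1.91-fold in replicate 2. Their 5p arms also share a run of 18 bases, so reads of that arm may map to both places and be left out of the counts, and the counts of these 2 genes are uncertain. In the group with the seed GGUUGUC, Mir410 had 120.0 and 56.2 CPM while Mir494 had 5.92 and 8.33 CPM. The groups of Mir758 with Mir1197 and of Mir496a with Mir453 each held 1 member with no count.

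The letters GGUCCAC were found in 5 of the 71 member arms (7.04%) and in 5 of all 1679 mouse arms listed (0.298%), so the listed arms that hold them are all in the cluster. The letters were picked after reading the sequences, and the search used the strand of the mature RNA. These arms are printed with the shared letters in capitals. They begin at base 11 in the first 4 arms and at base 8 in miR-412-3p.
mmu-miR-379-3p: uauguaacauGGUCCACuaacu
mmu-miR-411-3p: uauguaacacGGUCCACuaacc
mmu-miR-380-3p: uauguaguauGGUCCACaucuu
mmu-miR-758-3p: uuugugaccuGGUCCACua
mmu-miR-412-3p: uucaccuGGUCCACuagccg

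The hairpins bearing these arms ranged from 6159 CPM for Mir411 to 4.09 CPM for Mir758, so the shared letters went with no common level. The letters ACACGG were in 5 of 71 member arms, those of miR-411-3p, miR-323-3p, miR-494-3p, miR-485-3p and miR-154-3p, and in 7 of 1679 arms overall. The letters GGUUG were in 12 of 71 member arms (16.9%) and in 52 of 1679 overall (3.10%). Neither ACACGG nor GGUUG was set in advance, and the overall figures include the member arms, so no enrichment is read from them. An A was the first base in 38.0% of member arms and in 25.6% of all listed arms. A U, the more frequent first base, stood in 42.3% of member arms and in 40.9% of all listed arms.

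The tables held 12978140 and 15950006 reads, and 4226300 and 5162369 of them fell on a miRNA gene in its own orientation. A library of this size gives 1 count a weight of 0.237 CPM in replicate 1 and 0.194 CPM in replicate 2. The neuron list (Mir132, Mir137, Mir138-1, Mir128-1, Mir128-2 and Mir383) was detected in full, at 69176 CPM in replicate 1 and 43602 CPM in replicate 2. The oligodendrocyte list of 2 summed to 7091 and 5329 CPM, and the endothelium and mural list of 3 to 13268 and 19327 CPM. The microglia and immune list, with 3 of 4 detected, summed to 4873 and 2157 CPM. The erythroid pair Mir451a and Mir144, with 1 of them detected, summed to 36.2 CPM in replicate 1 and 861 CPM in replicate 2. Muscle hairpins summed to 39.0 and 52.3 CPM, with Mir1a-1, Mir133a-1 and Mir133a-2 at 0, and liver Mir122 had 48.5 and 86.6 CPM. Multimapping reads are not in any of these sums. A gene whose reads map to several places can stand at 0 for that reason, so a 0 does not show absence. These sums differed between the libraries, as did the members described next, and their part in the members' ratios was not tested.

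Together the 39 hairpins took 4.54% ± 0.0654 (SD, n = 2) of the counts on miRNA genes. The share was 4.49% in replicate 1 (Wilson 95% interval 4.47 to 4.51) and 4.58% in replicate 2 (4.57 to 4.602). These intervals cover counting error only. Multimapping reads, 40.4% of all reads in replicate 1 and 39.4% in replicate 2, are not in the counts of any gene. Shares, ranks and detection here hold only among counted reads, and the effect of the missing ones was not tested. Of the 39 members, 32 (82.1%) had 10 CPM or more in both libraries, against 309 of 2202 miRNA genes (14.03%). There were 4 members among the 50 most abundant miRNA genes and 11 among the first 100. The median level over all 39 was 211 CPM, from a median of 230.5 CPM in replicate 1 and 163 CPM in replicate 2.

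The cluster's reads were concentrated in a few hairpins. Mir382, Mir541, Mir411, Mir379 and Mir487b held 68.9% ± 4.10 (SD, n = 2) of them. Mir382 alone held 19.0% in replicate 1 and 22.7% in replicate 2. The most abundant tested hairpin, Mir382, lay 2316-fold above the least abundant, Mir544 and Mir758. Levels are reads per hairpin and were not divided by length, because a read covers a whole mature miRNA.

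**Figure D1:**
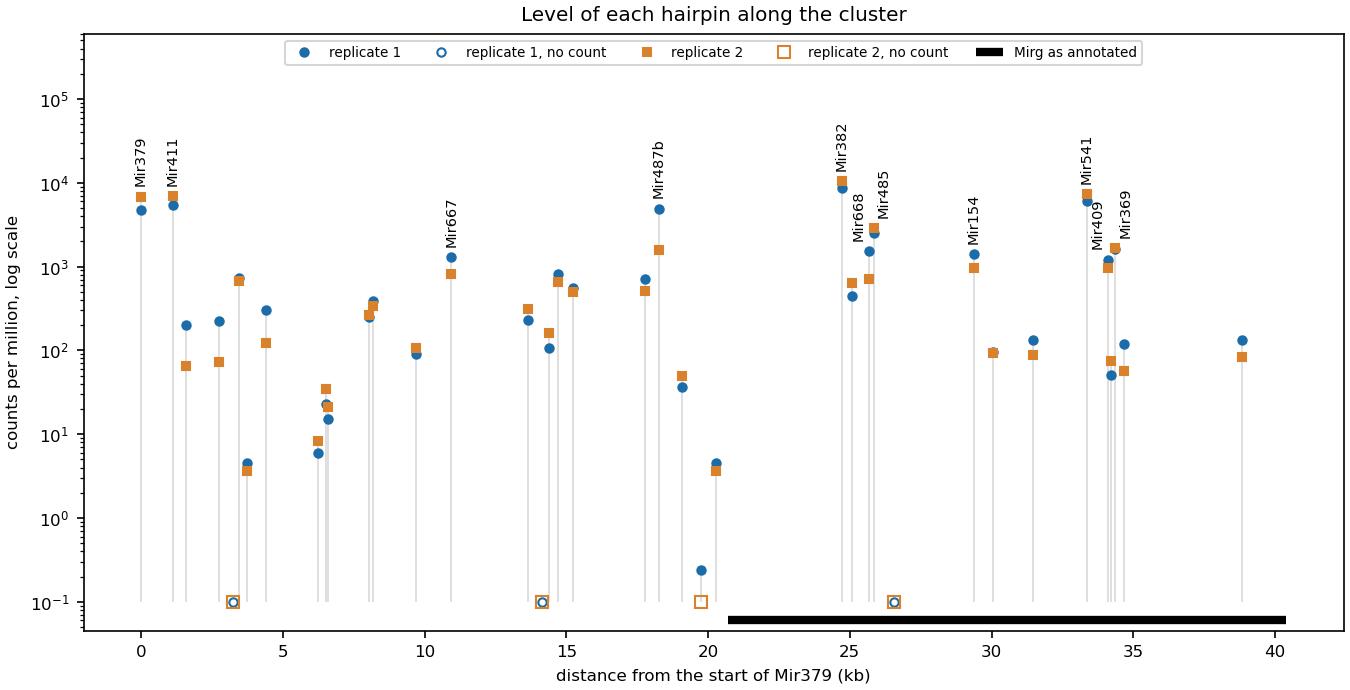
Level of each of the 39 hairpins against its distance from the start of Mir379 in kilobases. The vertical axis is CPM on a log scale, circles are replicate 1, squares are replicate 2, and open symbols at the bottom mark no count. The black bar is Mirg as annotated. Mir382 at 9468 CPM and Mir544 at 4.09 CPM are neighbours on the chromosome.

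There were 11 members at a mean of 1000 CPM or more. Mir382 (ENSMUSG00000065428.4, chr12:109733771-109733846, partly in an exon of Mirg) had 8544 CPM in replicate 1 and 10393 CPM in replicate 2. It was the highest in both libraries and ranked 20 among all miRNA genes. Mir541 (ENSMUSG00000076052.1, chr12:109742409-109742498, in an intron of Mirg) had 6004 and 7288 CPM. Mir411 (ENSMUSG00000065477.3, chr12:109710175-109710256, intergenic) had 5441 and 6876 CPM. Mir379 (ENSMUSG00000065498.4, chr12:109709060-109709125, intergenic), the first hairpin of the array, had 4796 and 6808 CPM. These 4 hairpins kept the same order in both libraries, and each was higher in replicate 2.

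Mir487b (ENSMUSG00000076219.1, chr12:109727333-109727414, intergenic) had 4881 CPM in replicate 1 and 1570 CPM in replicate 2. It placed above Mir379 in the first library and below Mir485 and Mir369 in the second. Mir485 (ENSMUSG00000070128.3, chr12:109734902-109734974, in an exon of Mirg), whose product is known to lower the synaptic vesicle protein SV2A and dendritic spine density, had 2524 and 2880 CPM. Mir369, one of the cluster's miRNAs known to act on N-cadherin in neural progenitors, had 1601 and 1651 CPM. The levels of the remaining abundant members were close to each other. Mir154 had 1185 CPM ± 322, Mir668 1114 ± 568, Mir409 1088 ± 177 and Mir667 1064 ± 338 (SD, n = 2 each), so their order was within the spread between libraries.

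Some members known for work on dendrites and neurons had levels under 1000 CPM. Mir134, which holds back spine growth by lowering the kinase Limk1, had 442 CPM in replicate 1 and 630 CPM in replicate 2. Mir381 and Mir329, which take part with miR-134 in activity-dependent dendrite growth, had 715 and 514 CPM and 301 and 121 CPM. Mir134 was below Mir381 in replicate 1 and above it in replicate 2. Mir495, known to target the neurotrophin Bdnf, had 91.1 and 106 CPM. The N-cadherin regulators Mir543 and Mir496a had 391 and 339 CPM and 95.6 and 92.0 CPM.

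The Mir376 hairpins, whose transcripts are known substrates of the adenosine deaminases that edit RNA, differed among themselves. Mir376a had 817 and 655 CPM, Mir376c 230.5 and 311 CPM, and Mir376b 108 and 163 CPM. The order Mir376a, Mir376c, Mir376b was the same in both libraries, though the counts of Mir376b and Mir376c are uncertain as said above.

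Of the others between 100 and 1000 CPM, Mir323 had 734 and 669 CPM and Mir300 had 553 and 491 CPM. Mir666, Mir380, Mir299a, Mir377 and Mir3072 had means from 109 to 258 CPM. The group from 10 to 100 CPM held 7 members: Mir495, Mir496a, Mir410, Mir412, Mir539, Mir679 and Mir1193. A further 7 lay under 10 CPM. Mir494 had 25 and 43 counts, and Mir544 and Mir758 had 19 counts in each library. The predicted gene Gm27379 had 1 count in replicate 1 and none in replicate 2. Mir1197, Mir654 and Mir453 had no count in either library, which allows up to 0.710 CPM in replicate 1 and 0.581 CPM in replicate 2.

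In the order of mean level, 15 of the 34 steps between consecutive tested members went the same way in both libraries and 19 did not, counting the tie of Mir544 with Mir758. The order was the same from Mir382 through Mir379 and again among the lowest, from Mir412 through Mir544. Between Mir380 at 147 CPM and Mir412 at 63.0 CPM none of the 8 steps went the same way in both libraries. Over the 39 members Pearson's r of log2(CPM + 1) between the libraries was 0.985, given as a description, since the hairpins share their libraries.

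Neighbouring hairpins differed widely in level although they lie on 1 strand and close together. Gaps between consecutive hairpins ran from 20 to 4368 bases with a median of 556. Between the 34 pairs of tested neighbours the median fold was 5.35, and 15 pairs differed by 10-fold or more. In 33 of the 34 pairs the same hairpin was the higher in both libraries. The exception was Mir496a with Mir377.

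Mir134 starts 292 bases after Mir382 ends, and Mir382 was 19.3-fold higher than it in replicate 1 and 16.5-fold in replicate 2. Mir299a follows Mir411 after 381 bases, and Mir411 was 27.0-fold and 106.6-fold higher. Mir758 follows Mir323 after 216 bases, and Mir323 was 163-fold and 182-fold higher. The run of Mir409, Mir412, Mir369 and Mir410, with gaps of 52, 49 and 218 bases, alternated between high and low. Its mean levels were 1088, 63.0, 1626 and 88.1 CPM. Mir379 and Mir411, 1049 bases apart, stood at like levels, with a fold of 1.06 between their means.

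Features of the hairpin went with level only weakly. Over the 35 tested members Spearman's rho of level was 0.0340 with GC content, -0.0838 with hairpin length and -0.00434 with folding energy per base. It was 0.0952 with distance from Mir379. The points share their libraries and no test was made. Over all 39 members GC content ranged from 29.1% in Mir376c to 72.3% in Mir3072, and length from 61 bases to the 123 bases of Gm27379, which was not tested. The 14 hairpins inside Mirg held 54.7% ± 2.45 (SD, n = 2) of the cluster's reads and the 25 before it 45.3%.

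Replicate 2 was then set against replicate 1 for each hairpin, the only comparison the design allows. Of 39 members, 35 had at least 10 counts over both libraries and were tested. An exact binomial test of each gene, adjusted by Benjamini-Hochberg over all 546 genes tested, found 27 members that differed beyond counting error. Of these, 11 were higher in replicate 2 and 16 higher in replicate 1. Over all genes tested, 58.8% were called, 24.5% towards replicate 2 and 34.2% towards replicate 1. Calls depend on depth, and among genes with at least 100 counts 77.9% were called, 32.8% towards replicate 2 and 45.1% towards replicate 1, with 27 of the 32 members there. The members' count is therefore read against a background at which most well-counted genes differ.

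The edgeR exact test, with a coefficient of variation of 0.1 allowed between libraries, called 11 members, 1 higher in replicate 2 and 10 higher in replicate 1, beside 28.8% of all genes (10.3% and 18.5%). The member higher in replicate 2 was Mir376b, whose counts are uncertain as said above. The 10 were Mir299a, Mir380, Mir329, Mir667, Mir487b, Mir668, Mir154, Mir377, Mir410 and Mir3072. The median log2 ratio of replicate 2 over replicate 1 was -0.16 over the members and -0.07 over all genes tested. It ran from -1.67 to 0.56 among members, with the middle of the distribution between -0.60 and 0.35.

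**Figure D2:**
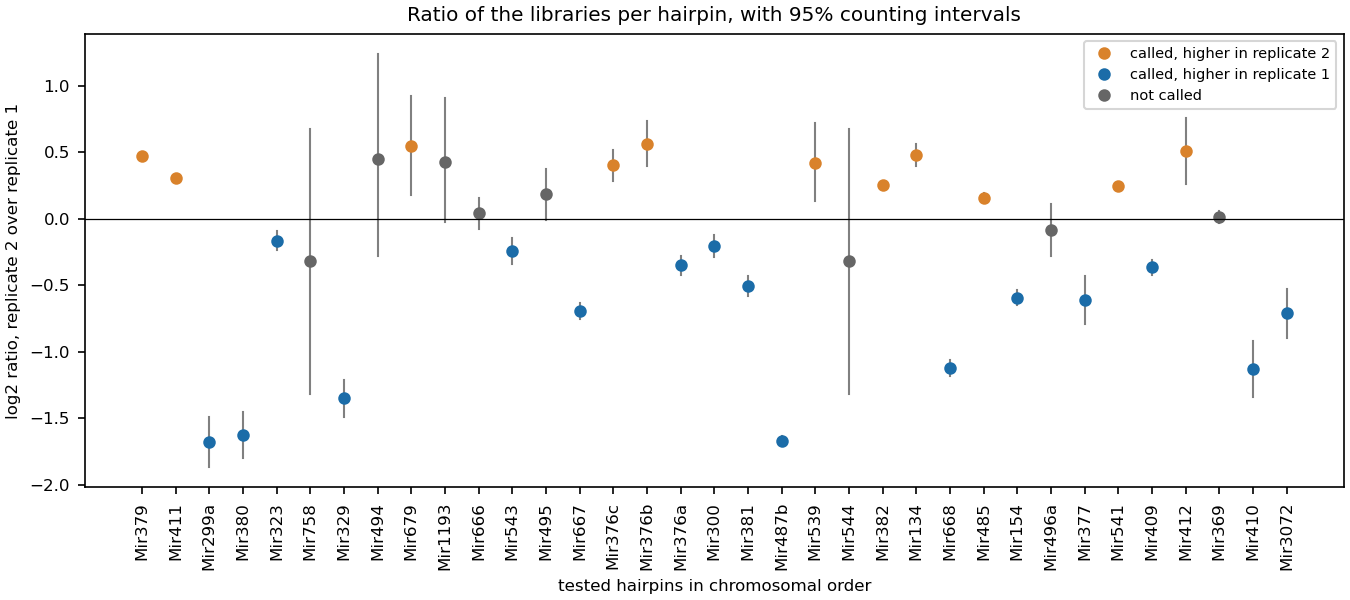
Log2 ratio of replicate 2 over replicate 1 for the 35 tested hairpins in chromosomal order, after TMM scaling, with bars for the exact 95% interval of counting error. Orange points are calls towards replicate 2, blue points are calls towards replicate 1, and grey points were not called. Calls of both directions occur along the whole cluster, and the lowest points are Mir299a, Mir487b and Mir380.

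There were 6 members that differed by 2-fold or more, and each was higher in replicate 1. Over all genes tested 138 of 546 (25.3%) passed that fold in either direction, and 14.4% of those with at least 100 counts. Their split by direction was not counted. Calls of any size over all genes also leaned to replicate 1, with 34.2% towards it and 24.5% towards replicate 2. Mir487b had 20628 counts in replicate 1 and 8104 in replicate 2, a log2 ratio of -1.67 (95% interval -1.70 to -1.63). Mir299a had 852 and 333 counts, a log2 ratio of -1.67 (-1.86 to -1.49) with an adjusted p of 2.44e-80 by the exact binomial test. Mir380, the hairpin after it, had 935 and 379 counts, a log2 ratio of -1.62 (-1.80 to -1.45). These 3 hairpins lay more than 3-fold apart between the libraries.

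Mir329 had 1274 and 624 counts, a log2 ratio of -1.35 (-1.49 to -1.21). Mir410, the last hairpin before Mir3072, had 507 and 290 counts, a log2 ratio of -1.12 (-1.34 to -0.91). Mir668 had 6406 and 3676 counts, a log2 ratio of -1.12 (-1.18 to -1.06). The other members called higher in replicate 1 had smaller ratios, from -0.71 for Mir3072 and -0.69 for Mir667 to -0.16 for Mir323. They include Mir377, Mir154, Mir381, Mir409, Mir376a, Mir543 and Mir300.

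Ratios towards replicate 2 were smaller. The highest was Mir376b at 0.56 (95% interval 0.40 to 0.73), from 455 and 840 counts, with an adjusted p of 3.30e-11 by the exact binomial test. Its counts are uncertain because of the bases its 5p arm shares with Mir376c, and the interval does not cover that. Mir679 followed at 0.54 (0.18 to 0.92), Mir412 at 0.51 (0.26 to 0.75), Mir134 at 0.48 (0.40 to 0.56) and Mir379 at 0.47 (0.45 to 0.50). Mir539, Mir376c, Mir411, Mir382, Mir541 and Mir485 made up the rest, with log2 ratios from 0.42 down to 0.16. The most abundant members, Mir382, Mir541, Mir411 and Mir379, were thus 1.19-fold to 1.39-fold higher in replicate 2.

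**Figure D3:**
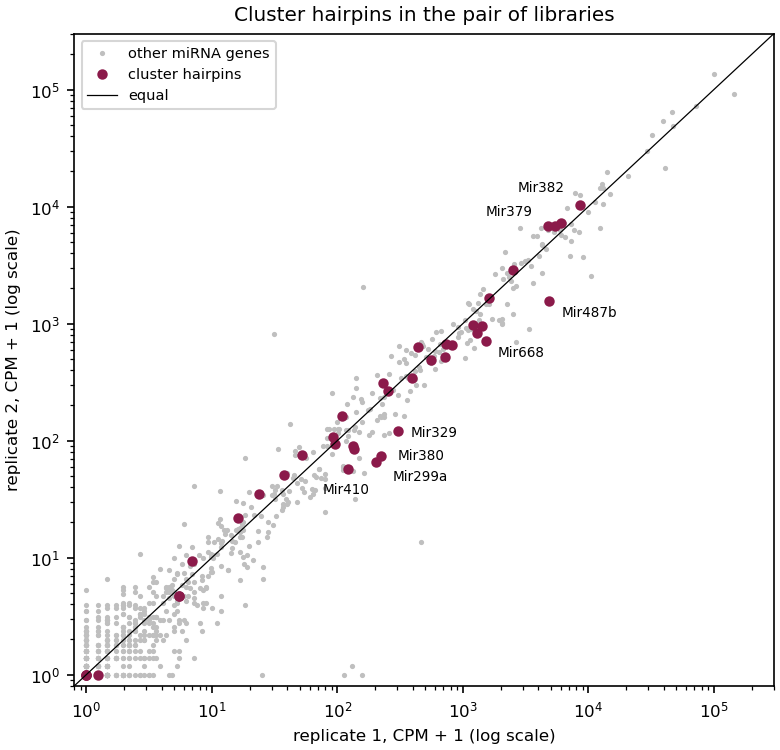
CPM + 1 in replicate 1 against replicate 2, both on log scales, for the 39 cluster hairpins (dark red) and the other miRNA genes (grey). The line marks equal values. Most hairpins lie near the line, and Mir487b, Mir668, Mir329, Mir380, Mir299a and Mir410 lie below it.

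The 8 tested members that were not called were Mir369, Mir666, Mir496a, Mir495, Mir1193, Mir494, Mir544 and Mir758. For the well-counted Mir369 the log2 ratio was 0.01 (95% interval -0.03 to 0.06), and for Mir666 0.04 (-0.08 to 0.16). For Mir544 and Mir758 the interval ran from -1.32 to 0.68, and a 2-fold difference towards replicate 1 lies within it at this depth. With DESeq2 size factors Mir369, Mir495 and Mir1193 also passed, towards replicate 2.

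In 4 seed groups both members were tested. Mir379 and Mir411 had log2 ratios of 0.47 and 0.31, and Mir376b and Mir376c had 0.56 and 0.40, all 4 called towards replicate 2. Mir1193, which shares a 5p seed with Mir379, had 0.43 and was not called. Mir410 and Mir494, with the same 5p seed, had log2 ratios of -1.12 and 0.45, the latter not called. Mir376a, which is in no seed group, was higher in replicate 1 while Mir376b and Mir376c were higher in replicate 2. Of the 34 neighbouring pairs, 17 had ratios of the same sign. Spearman's rho of the log2 ratio was -0.10 with level, -0.12 with GC content, 0.22 with folding energy per base and -0.10 with distance from Mir379, as descriptions over 35 members.

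The sum of the cluster differed little beside these ratios. Its share of counts was 4.49% and 4.58%, while within the cluster Mir487b took 10.9% in the first library and 3.42% in the second. Mir379 took 10.7% and 14.9%, and Mir668 3.37% and 1.55%. The 5 most abundant members held 66.0% of the cluster in the first library and 71.8% in the second.

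**Figure D4:**
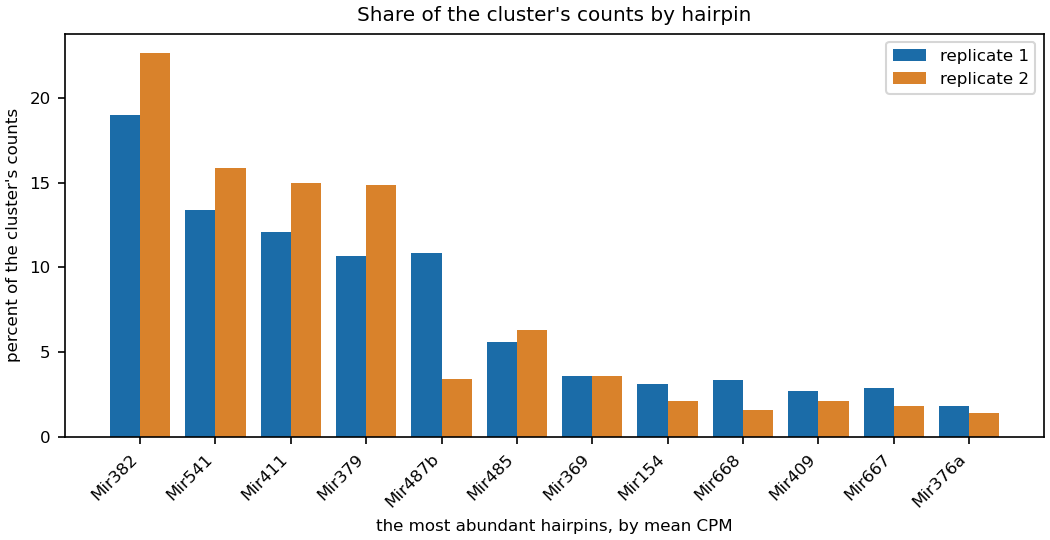
Percent of the cluster's own counts taken by each of the 12 most abundant hairpins, in order of mean CPM, with blue bars for replicate 1 and orange bars for replicate 2. Mir382, Mir541, Mir411 and Mir379 took more in replicate 2, and Mir487b took 10.9% in replicate 1 and 3.42% in replicate 2.

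The hairpins upstream in the same domain and on the same strand, among them those of Meg3, of the transcript antisense to Rtl1 and of Rian, serve as the nearest comparison. Those 20 genes took 6.12% of all counts in replicate 1 and 7.63% in replicate 2, more than the Mirg cluster in each library. Mir127, which lies antisense to Rtl1, held 52.8% of that upstream sum, against 20.8% for Mir382 within the Mirg cluster. Of the upstream genes 16 were detected, and their median level over all 20 was 406 CPM. Of the 16 tested, 11 passed the same test, 6 towards replicate 2 and 5 towards replicate 1, and 1 of them, Mir665, passed 2-fold. Hairpins of 1 domain are not replicates, so no test was made between these sets.

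The strand of the count mattered for 5 members. Mir299a, Mir380, Mir376a, Mir539 and Mir409 each lie opposite another annotated miRNA gene, and all 5 had 0 counts in the unstranded column of both libraries. On their own strand they had from 154 to 5130 counts in replicate 1. No member had any count on its opposite strand in either library. Besides the pair Mir376b and Mir376c, runs of 18 bases were shared by Mir411 with Mir758 and by Mir376b with Mir487b. No listed arm held a whole one of these runs. In Mir411, Mir758 and Mir376b no stretch that long lies free of the listed arms, so each run there overlaps an arm in part. Mir487b had only its 5p arm listed. The effect of these runs on the counts was not tested.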

How the data were processed

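Small RNA libraries from left cerebral cortex were analysed from 2 deposited tables, 1 per library, which hold the authors' raw counts for each miRNA gene of GENCODE M21 on mm10, per the record deposited with them. Which aligner, counter and trimming were used is not given in the sources used here. Each table has 4 rows that name no gene, which held 67.4% and 67.6% of the reads, multimapping reads among them, and were left out of library sizes and tests. All 2202 gene IDs matched M21. Counts on the gene's strand were used, without normalization by the authors.

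CPM was computed over those counts. Genes whose counts summed to at least 10 were tested, replicate 2 against replicate 1, by a two-sided exact binomial test against TMM-scaled library sizes (edgeR 4.0.16, R 4.3.3) with Benjamini-Hochberg adjustment at 0.05. Ratios had 0.5 counts added. DESeq2 1.42.0 size factors and an edgeR exact test at a fixed coefficient of variation of 0.1 were alternatives. Data for this comparison with 546 genes were simulated with counting error alone. In them the test recovered 71% of 200 genes changed 2-fold and called 1.45% of the unchanged ones. The test itself allows for counting error alone, so 1.45% is not an error rate for the real libraries. Hairpins were folded with RNAfold 2.7.2. Named in full were the 12 members with the highest mean, the 5 largest ratios each way among called members with at least 100 counts, seed groups and members with known neuronal roles. Members, lists and tests were chosen with earlier results of these data known.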

Additional observations from a re-analysis of the deposited data

How the results depend on the processing

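The number of members called different was 27 to 30 with DESeq2 size factors, total counts or a minimum of 1 or 100 counts, 22 with the unstranded column and 11 with the edgeR exact test at a coefficient of variation of 0.1. Over all genes that test called 157 in place of 321. The median log2 ratio was -0.0335 with the unstranded column, where 5 members drop out, and -0.09 to -0.16 under the other settings run. The cluster took 1.47% of all reads in the tables and 4.64% of the unstranded counts. With a limit of 100 CPM 21 members were detected, and 27 to 35 under the other settings. The correlation between the libraries was 0.960 over members with at least 100 counts. The median level was 119 CPM with the unstranded column and 163 to 230.5 CPM when each library was left out in turn. Leaving out a library leaves 1, so no test of the difference could be made then. No paired analysis was possible because there is 1 group. Depth limits the 7 members under 10 CPM: the intervals of Mir494, Mir544 and Mir758 each hold a 2-fold difference in 1 direction, and the other 4 had too few counts to be tested.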

Other observations

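Imprinted hairpins outside the Dlk1-Dio3 domain gave a further set of levels. Mir335, in the imprinted Mest locus, had 4803 CPM in replicate 1 and 6320 CPM in replicate 2, close to those of Mir379. Mir298 had 2633 and 2079 CPM and its neighbour Mir296 had 204 and 364 CPM. The exact binomial test called Mir335, Mir298 and Mir296, beside 58.8% of all genes tested and 77.9% of those with at least 100 counts. By that test the log2 ratios of replicate 2 over replicate 1 were 0.36 for Mir335 (adjusted p 7.38e-178) and -0.37 for Mir298 (adjusted p 5.69e-80). For Mir296 the log2 ratio was 0.80 (adjusted p 2.56e-43 by the same test). Mir483, in the Igf2 locus, had 50.2 and 46.1 CPM and was not called. Mir675, cut from the maternal transcript H19, had no count in either library.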
